A study of Homo sapiens with 7 samples.

Results

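The canonical Wnt pathway core was examined as 10 genes chosen by their symbol, of 24721 gene symbols in the deposited table. They are the co-receptors LRP5 and LRP6, the Dishevelled adaptors DVL1 and DVL3, beta-catenin (CTNNB1), the scaffolds APC, AXIN1 and AXIN2, the kinase GSK3B and the transcription factor TCF7L2. Each had 1 row in the table, and together they carried 16 of its 12769 peaks of m6A (N6-methyladenosine), an adenosine methylation that is frequent inside messenger RNAs. The study mapped m6A in cells labelled HepG2 that had no treatment, HepG2 being a line from a human liver cancer, in 4 libraries of RNA fragments precipitated with an anti-m6A antibody (m6A-IP) and 3 input libraries without antibody. There was 1 condition, and the table gives 1 value per transcript or peak and none per library. The spread between libraries is therefore unknown, and the values below are descriptions with no replicate error and no test.

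In canonical Wnt signalling, a ligand joins a Frizzled receptor to LRP5 or LRP6, and Dishevelled then draws Axin to the membrane. Without ligand, Axin and APC hold beta-catenin so that casein kinase 1 and GSK3 phosphorylate it, which marks it for breakdown. Spared beta-catenin enters the nucleus and switches on genes together with TCF and LEF factors, AXIN2 being a widely used target. The pathway guides liver zonation and is often altered in liver cancer, and HepG2 is known for a shortened form of beta-catenin that escapes breakdown.

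The label of the cells was set against markers of the tissue. Of 18 liver markers, 10 stood at the lowest expression quantile of the table, albumin (ALB) and alpha-fetoprotein (AFP) among them, and none had a peak. The highest of the 18 was the fibrinogen chain FGB, at 0.619. Markers of other cell types gave no single pattern. None of 6 epithelial markers stood at the lowest quantile, with KRT7, KRT8, KRT18 and KRT19 at 0.998, 0.996, 0.992 and 0.964 but EPCAM at 0.498 and CDH1 at 0.368. Of 9 ovarian or Müllerian markers, which ranged from 0.314 to 0.968 with a median of 0.496, 1 stood at the lowest quantile. At that quantile stood 1 of 6 fibroblast markers, COL1A2, and 3 of 5 lung, 5 of 6 intestine and 3 of 5 blood cell markers. Of the other fibroblast markers, VIM stood at 0.997, COL1A1 at 0.782, COL3A1 at 0.675, PDGFRB at 0.529 and FAP at 0.401. The liver markers thus go against the label, and the cells are called "cells labelled HepG2" here. An expression quantile is the share of transcripts at or below a transcript's expression, and 8139 of 25918 transcripts were tied at the lowest value, 0.314. None of those had a peak. The peak score is the authors' own, on a scale they do not state, and ran from 2.00 to 7.91.

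Peaks were listed in 7 of the 10 core genes. Of all genes, 29.1% had a peak, as had 41.5% of those above the lowest expression quantile, 35.6% of coding genes and 27.9% of transcripts. The 7 genes also had a peak outside the transcript start, against 25.7% of all genes. LRP6 had 4 peaks, CTNNB1 had 3, LRP5, DVL1, DVL3 and AXIN1 had 2 each, and APC had 1. AXIN2, GSK3B and TCF7L2 had none. Thus 6 of the 7 core genes with a peak had 2 or more, against 44.5% of all genes with a peak, and LRP6 alone had 4 or more, against 7.85%. CTNNB1 and LRP6 had 3 or more, against 18.3%.

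Most of the core genes were well expressed, which bears on whether a peak can be called. DVL1 stood at an expression quantile of 0.979, LRP5 at 0.963, DVL3 at 0.941, CTNNB1 at 0.933 and AXIN1 at 0.932. TCF7L2 and GSK3B stood at 0.869 each. LRP6 at 0.679 and APC at 0.616 were lower, and AXIN2 at 0.323 lay just above the lowest value. Among transcripts within 0.05 of each gene's quantile, the share with a peak ran from 42.0% around APC to 71.0% around CTNNB1 for the 7 genes with peaks. It was 71.2% around TCF7L2 and 71.1% around GSK3B. Around AXIN2 it was 0.021% (2 of 9654 transcripts), a window that takes in the 8139 transcripts at the lowest quantile, none of which had a peak. The 7 genes with a peak stand against 5.84 when the shares around all 10 are added up.

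**Figure D1:**
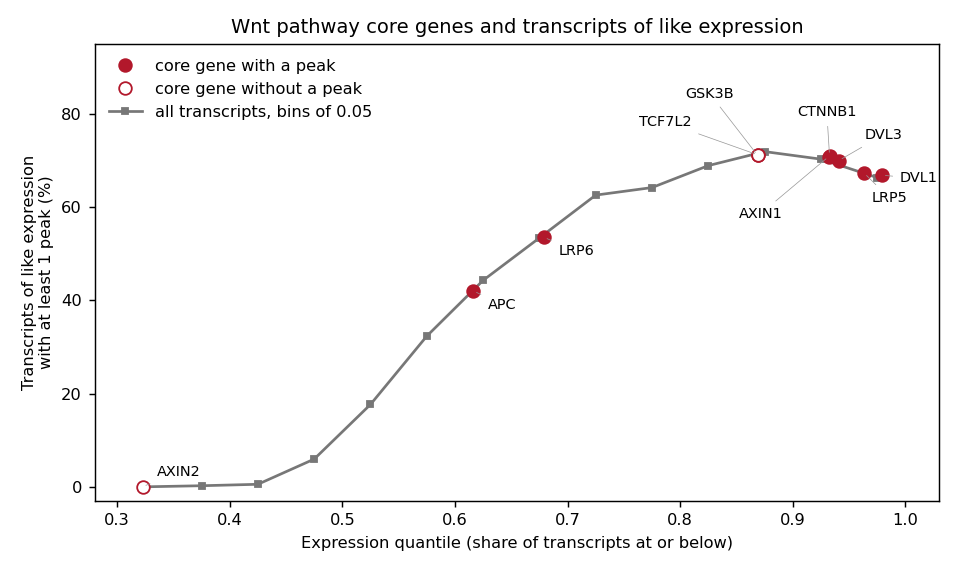
Share of transcripts of like expression with at least 1 peak (y axis, %) against the expression quantile (x axis) for the core genes with a peak (filled circles) and without one (open circles), and for all transcripts in bins of 0.05 (grey squares). AXIN2 sits where peaks are nearly absent, while GSK3B and TCF7L2 lack a peak at a quantile where about 71.1% of transcripts have one.

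The co-receptors, which are paralogues, differed in the scores of their peaks. LRP6, which is phosphorylated on its cytoplasmic tail when Wnt binds, had peaks with scores of 5.29, 4.03, 3.95 and 3.04. LRP5, its close relative, also known for a role in bone mass, had peaks with scores of 2.11 and 2.04. All 4 LRP6 peaks scored above both LRP5 peaks, and LRP5 was the more expressed of the pair by quantile. The median top score of like-expressed transcripts with a peak was 3.71 around LRP6 and 3.31 around LRP5. Of all listed peaks, 95.4% scored lower than the strongest of LRP6 and 5.70% lower than the strongest of LRP5. Among transcripts of like expression with a peak, 7.71% had as many peaks as LRP6 or more. The LRP6 transcript is 10083 nt long and that of LRP5 5128 nt, with 0.397 and 0.390 peaks per kb.

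The peaks of the pair lay partly in exons of the same number, but at different listed positions within them. Both LRP5 peaks scored near the lowest score of all peaks, 2.00. Both genes had a coding peak in exon 6, which is 397 nt long in each, and a peak around the stop codon in exon 23. The reference exons 6 share 68.0% of their bases at equal offsets. The LRP6 peak lay 260 nt and the LRP5 peak 164 nt into that exon, 96 nt apart, at codons 412 of 1613 and 393 of 1615. The RNA was cut to fragments of about 100 nt, so a listed position does not place a site to the nt. Whether the methylated sites of the 2 exons differ was not tested. Around the stop codon, the LRP6 peak lay 163 nt and the LRP5 peak 20 nt upstream of it. LRP6 had a further coding peak in exon 2 (394 nt), at codon 84, which was its strongest, and 1 in the 3' UTR, 2054 nt past the stop codon. LRP5 has an exon 2 of 397 nt but no peak in it. Its 3' UTR is 205 nt long against 5099 nt in LRP6. The stretches below show the m6A consensus motif nearest to each exon 6 peak and to the strongest LRP6 peak. With the nearest included, 5 motifs lay within 100 nt of each of these LRP6 peaks and 2 within 100 nt of the LRP5 peak. Which of them is methylated was not tested. The motif is in capitals, with 10 nt on either side, in the DNA letters of GENCODE release 29.

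LRP6 exon 6: gtattgctgtGGACTgggttgcacg
LRP5 exon 6: tatgtctactGGACAgatgacgagg
LRP6 exon 2: gaatttaacaAAACTgagagtgtgc

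In GRCh38 these lie at chr12:12181172-12181196 (minus strand), chr11:68386456-68386480 (plus strand) and chr12:12244452-12244476 (minus strand). The motif's A lay 4 nt upstream of the LRP6 exon 6 peak, 11 nt upstream of the LRP5 exon 6 peak and 4 nt upstream of the LRP6 exon 2 peak. The reference exons 6 held 11 motifs in LRP6 and 8 in LRP5, of which 4 lay at the same offset.

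The Dishevelled genes, whose proteins bind Frizzled and polymerise with Axin at the membrane, had weak peaks in the same 2 segments. DVL3 had scores of 2.63 and 2.46, and DVL1 of 2.59 and 2.12. All 4 were under the median of all peaks, 3.15. In each gene the stronger peak lay around the stop codon and the weaker in the 3' UTR, both in the last exon, exon 15. The stop codon peak lay 69 nt upstream of the stop codon in DVL3, at codon 694 of 716, and 31 nt downstream of it in DVL1. The 3' UTR peaks lay 2408 nt past the stop codon in DVL3 and 511 nt past it in DVL1. Counted from the other end, they lay 365 nt and 355 nt before the end of the table's transcript. In the reference transcripts these distances were 450 nt and 357 nt. DVL1 also fitted a longer reference transcript, in which its stop codon peak lies 44 nt upstream of the stop codon. DVL3 also fitted a longer one, in which its peaks lie at the same distances from the stop codon. The DVL3 motif is shown because it all but coincides with the listed position, its A lying 1 nt upstream.

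DVL3 stop codon: agtgcccccgGAACTgaccgccagc

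It lies at chr3:184170671-184170695 on the plus strand of GRCh38. The third Dishevelled gene, DVL2, had 1 peak, at the transcript start, with a score of 2.80.

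CTNNB1, the effector of the pathway, held the strongest peak of the core genes. Its 3' UTR peak scored 5.68, and 97.7% of all peaks in the table and 96.95% of the top peaks of transcripts of like expression scored lower. It lay 489 nt past the stop codon in exon 15, 619 nt before the end of the transcript. The other CTNNB1 peaks scored 3.48, at the transcript start (129 nt from it, in exon 1), and 2.53, around the stop codon, 63 nt upstream of it at codon 761 of 781. The stop codon peak was thus the weakest of the 3. The motif beside it lay 1 nt downstream of the listed position, while that nearest to the 3' UTR peak lay 39 nt upstream.

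CTNNB1 stop codon: ggcatgcccaGGACCtcatggatgg
CTNNB1 3' UTR: caattgaagtAAACTttttgttctg

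They lie at chr3:41239266-41239290 and chr3:41239778-41239802 on the plus strand of GRCh38.

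The scaffolds of the destruction complex carried their peaks in the coding sequence. AXIN1, the limiting scaffold that gathers GSK3, casein kinase 1, APC and beta-catenin, had a peak with a score of 5.08 in exon 2 (959 nt), at codon 236. A second peak in exon 6 (530 nt) scored 3.24. Of the top peaks of transcripts of like expression, 91.8% scored lower than the first. APC, a tumour suppressor that binds beta-catenin through repeats, had 1 peak, with a score of 3.26, in the last exon of 8687 nt. It lay at codon 2738 of 2843, 316 nt upstream of the stop codon. APC was the longest of the core transcripts with a peak at 10730 nt and had 0.093 peaks per kb, the fewest of the 7. The others ran from 0.39 in LRP5 to 0.81 in CTNNB1. The APC transcript held 199 consensus motifs, more than any of the other 6, but was also the longest. A motif lay within 50 nt of 88.5% of its positions, against 64.8% in DVL3 to 88.5% in LRP5 for the others.

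AXIN1 exon 2: tctgggtcagGGACAgggaagggca
APC exon 16: aactgagataAAACCaggacaaaat

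These lie at chr16:346326-346350 (minus strand) and chr5:112843799-112843823 (plus strand) in GRCh38. The motif's A lay 19 nt upstream of the AXIN1 peak and 3 nt downstream of the APC peak. The APC stretch also holds another motif, GGACA, left in lower case, and 3 motifs lay within 25 nt of the APC peak. The AXIN1 transcript fitted reference transcripts of 3324 and 3643 nt, in which the peaks lie within 1 nt of the same place in exons 2 and 6.

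**Figure D2:**
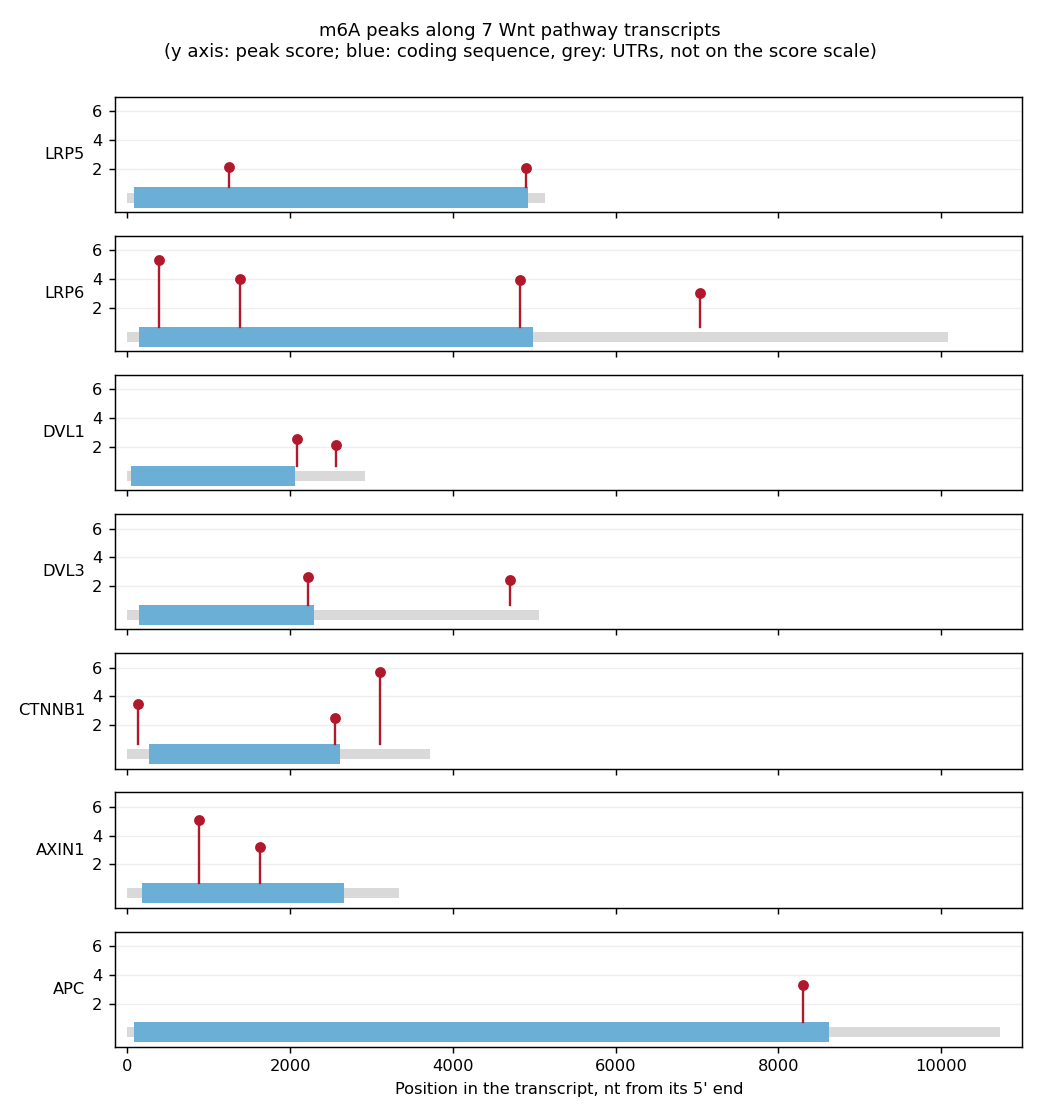
Peaks of the 7 core genes with a peak along their transcripts, with position in nt from the 5' end on the x axis and peak score on the y axis. Blue bars mark the coding sequence and grey bars the UTRs; the strongest CTNNB1 peak lies in the 3' UTR, that of LRP6 near the start of the coding sequence, and the single APC peak near the end of its long coding sequence.

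Of the 3 core genes without a peak, AXIN2 was hardly expressed. It is a second Axin scaffold and a feedback inhibitor of the pathway. Its reference transcript has exons 2 and 6 of 931 and 512 nt, the same exons that held the AXIN1 peaks, and 58 motifs. Of 9654 transcripts of like expression, 8139 of them at the lowest quantile, 2 had a peak. No difference between the Axins can therefore be read from the lack of an AXIN2 peak. GSK3B, the kinase that phosphorylates beta-catenin, and TCF7L2, a DNA-binding partner of beta-catenin in the nucleus, lacked a peak at a quantile where most transcripts have one.

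The transcript models bear on these zeros. The genomic span of GSK3B in the table is 6127 nt shorter than that of the longest reference transcript, whose last exon is 5533 nt. It is within 13 nt of the span of a reference transcript of 1636 nt with a last exon of 170 nt. How much of the 3' UTR the table's GSK3B model holds cannot be told from the table, and peaks beyond its end would not be listed. The complete reference transcript of TCF7L2 nearest in span was 565 nt shorter than the table's, so its exons were not matched. The longest internal exon was 194 nt in the GSK3B transcripts compared and 160 nt in those of TCF7L2. The other GSK3 kinase, GSK3A, also lacked a peak, at a quantile of 0.946.

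Across the 7 genes, 6 peaks lay in the coding sequence, 5 around the stop codon, 4 within the 3' UTR, 1 at the transcript start and 0 elsewhere in the 5' UTR. Of 12424 peaks with a segment in the table, 36.6% lay in the coding sequence, 27.6% around the stop codon, 20.5% in the 3' UTR, 12.5% at the transcript start and 2.78% elsewhere in the 5' UTR. Segments derived with the reference coding sequence, with limits of 200 nt from the table's own transcript start and on either side of the stop codon, equalled the authors' for all 16 peaks. Counted from the start of the reference transcript, which begins 222 nt further upstream, the CTNNB1 start peak would instead lie in the 5' UTR, 140 nt before the start codon. A stop codon peak was found in 5 genes, both co-receptors, both Dishevelled genes and CTNNB1, but in neither APC nor AXIN1. By exon, 10 peaks lay in the last, 5 in internal exons and 1 in the first. The share of all peaks by exon position, and of all genes with a stop codon peak, is not given here. Whether these counts differ from the rest of the table was therefore not tested.

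The internal peaks sat in the longest internal exons. AXIN1, LRP5 and LRP6 were the 3 genes with internal exons of 390 nt or more, and 5 of their 6 such exons held a peak, exon 2 of LRP5 being the exception. None of the 97 shorter internal exons of the 7 genes, up to 379 nt long, held one. CTNNB1, APC, DVL1 and DVL3 have no internal exon of 390 nt and had no internal peak. The limit of 390 nt was set after the values were seen, between the shortest internal exon with a peak (394 nt) and the longest shorter one. The lack of peaks in the 97 shorter exons follows from that choice. No share over the internal exons of all genes is given here. With the last exons included, 15 of the 16 peaks lay in exons of 390 nt and over, as did 85.1% of all peaks of the table.

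**Figure D3:**
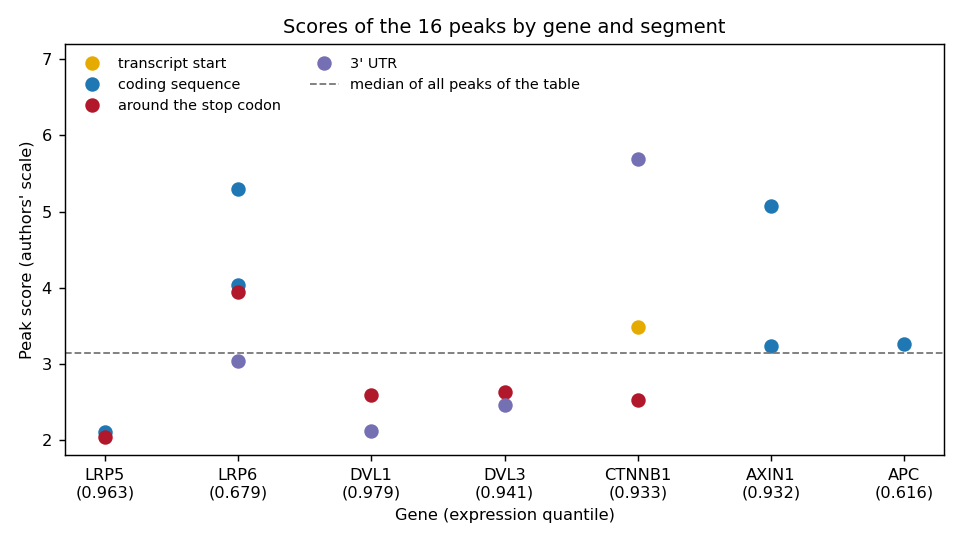
Scores of the 16 peaks (y axis, the authors' scale) by gene, with the expression quantile in brackets; colours give the segment and the dashed line the median of all peaks of the table, 3.15. The strongest peaks of CTNNB1, LRP6 and AXIN1 lie at 5.08 and over, while all peaks of LRP5, DVL1 and DVL3 lie at or under 2.63.

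The median score of the 16 peaks was 3.14, against 3.15 for all peaks. The strongest peaks of CTNNB1, LRP6 and AXIN1 were above the median top score of transcripts of like expression (3.38, 3.71 and 3.38). Those of LRP5, DVL1, DVL3 and APC were below theirs (3.31, 3.27, 3.34 and 3.63). DVL1 and LRP5, the most expressed, had the lowest top scores. Counting only peaks at or above the median score, 4 of the 10 genes remained, CTNNB1, LRP6, AXIN1 and APC, against 18.6% of all genes. The same 4 had a peak with a score of 3 or more, against 20.1%.

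The m6A consensus, written RRACH, comprises 12 pentamers in which a pair of purines (A or G) precedes AC and the last base is A, C or T. It was searched on the transcript strand only, and its A is the base that carries the methyl group where a motif is methylated. Which of the motifs near a peak is methylated was not tested. It lay within 50 nt of 15 of the 16 peaks (93.8%, 95% Wilson interval 71.7 to 98.9%), against 80.0% of all windows of that size along the same 7 transcripts. Within 10 nt, a window chosen after seeing the data, it was found for 9 peaks (56.3%, interval 33.2 to 76.9%), against 29.3% of windows. The peak without a motif within 50 nt was that at the transcript start of CTNNB1, whose nearest lay 59 nt away. The nearest motif was GGACA for 4 peaks, GGACT and GAACT for 3 each, GGACC and AAACT for 2 each, and AAACC and AGACT for 1 each. GGACT lay within 50 nt of 2 peaks (12.5%, interval 3.50 to 36.0%), in LRP6 exon 6 and at the LRP5 stop codon, against 15.2% of windows. The intervals cover counting error only, and peaks of 1 transcript are not independent.

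**Figure D4:**
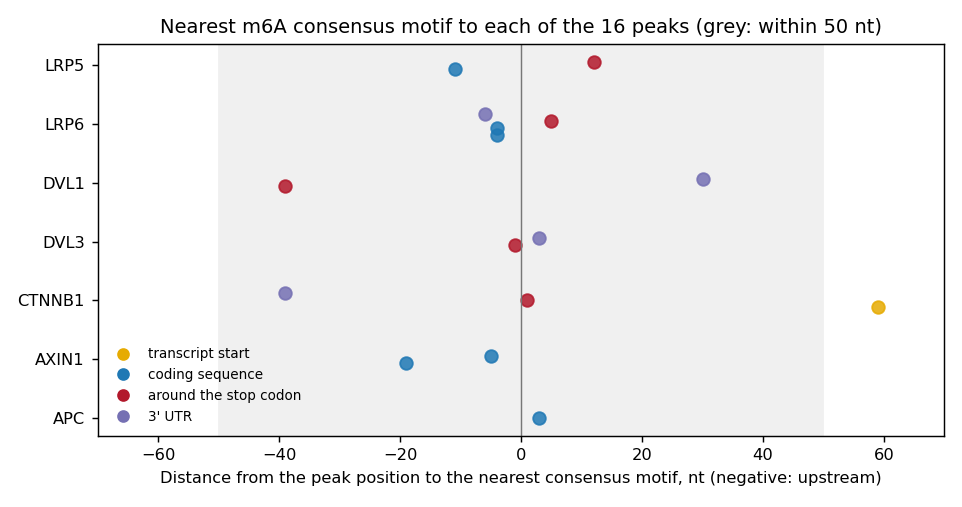
Distance in nt from each of the 16 listed peak positions to the nearest m6A consensus motif (x axis, negative upstream), by gene, with colours for the segment and grey for distances within 50 nt. Of the points, 9 lie within 10 nt of 0, a limit chosen after seeing the data. The CTNNB1 transcript start peak, at 59 nt, is the one outside the grey band.

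Around the core, 74 of 129 other genes of the pathway had a peak (57.4%), against 29.1% of all genes. Shares of like-expressed transcripts add up to 50.4 for these 129 genes. Of 19 Wnt ligands 5 stood at the lowest quantile and 4 had a peak, against 3.41 by adding up shares at like expression. They were led by WNT5A, a ligand of mainly non-canonical signalling (3 peaks, top score 4.18), WNT7B (3.79) and WNT6 (3.62), while WNT10B (quantile 0.718) and WNT9A (0.574) had none. Of 3 genes of ligand secretion 2 had a peak, against 1.99 by adding up such shares. The ligand carrier WLS, listed as GPR177, had a top score of 2.93 and the ligand deacylase NOTUM 2.43, whereas PORCN, which acylates Wnts, had none at 0.772. Of 13 secreted or membrane antagonists 7 were at the lowest quantile and 2 had a peak, against 1.60 by adding up such shares. They were KREMEN2 (3.41) and DKK1 (2.68), both partners in removing LRP6 from the surface. KREMEN1 and DKK3 had none.

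All 10 Frizzled genes, the seven-pass receptors of Wnt, had a peak, at expression quantiles from 0.520 to 0.874 with a median of 0.653. They carried 24 peaks, 17 of them in the coding sequence, where 36.6% of all peaks with a segment lay. The exons with peaks were 411 to 6792 nt long with a median of 3851 nt, against 1333 nt for all peaks. FZD1 led with 4 peaks and a top score of 5.09, followed by FZD5 (5.02). With the co-receptors ROR1, ROR2 and RYK, 12 of 13 receptors other than LRP5 and LRP6 had a peak, against 6.68 by adding up shares at like expression. Those shares are matched for expression and not for exon length. ROR2, a receptor for WNT5A, had 5 peaks (top score 4.93) and RYK had none. Of 9 genes of receptor turnover 3 had a peak, against 1.98 by adding up such shares. The ubiquitin ligases ZNRF3 (4 peaks, 5.99) and RNF43 (3 peaks, 5.64), which remove Frizzled from the surface, were strong too, ZNRF3 scoring above all core genes and RNF43 above all but CTNNB1. The R-spondin receptor LGR4 scored 4.48, while RSPO3 and LGR6 had no peak.

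Inside the cell, 17 of 19 other members of the destruction complex list had a peak, against 11.3 by adding up shares at like expression. The phosphatase subunits PPP2R5A and PPP2R5E scored 5.50 and 5.09, and BTRC, which recognises phosphorylated beta-catenin for ubiquitination, 5.14. GSK3A and FBXW11, a relative of BTRC, had none. Of 9 genes in the list of Dishevelled and its partners other than DVL1 and DVL3, 4 had a peak, against 2.49 by adding up such shares, with DIXDC1 (5.23), FRAT1 (3.51) and FRAT2 (3.38) leading, and DACT2 and NKD2 without. In the nucleus, 15 of 21 other genes of the nuclear complex list had a peak, against 11.4 by adding up shares at like expression. They were led by the acetyltransferase CREBBP (5.96), the remodeller CHD8 (5.14) and the acetyltransferase EP300 (7 peaks, 4.92). The corepressors TLE2 and TLE4 had none, nor had the TCF7L2 relatives TCF7 (quantile 0.475), TCF7L1 (0.505) and LEF1 (lowest quantile).

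Among 24 target genes other than AXIN2, 14 had a peak, against 8.57 by adding up shares at like expression. MYC, a growth-promoting transcription factor, scored 6.76 around the stop codon, ZNRF3 5.99 and SOX9, a progenitor factor, 5.70. EPHB3 and TCF7 had none. Like AXIN2, the feedback targets LGR5 (0.335) and NKD1 (lowest quantile) were hardly expressed, and a lack of peaks cannot be told apart there from a lack of reads. LGR5, NKD1, DVL2, ROR1, TCF7L1 and LEF1 were named after their values were seen.

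**Figure D5:**
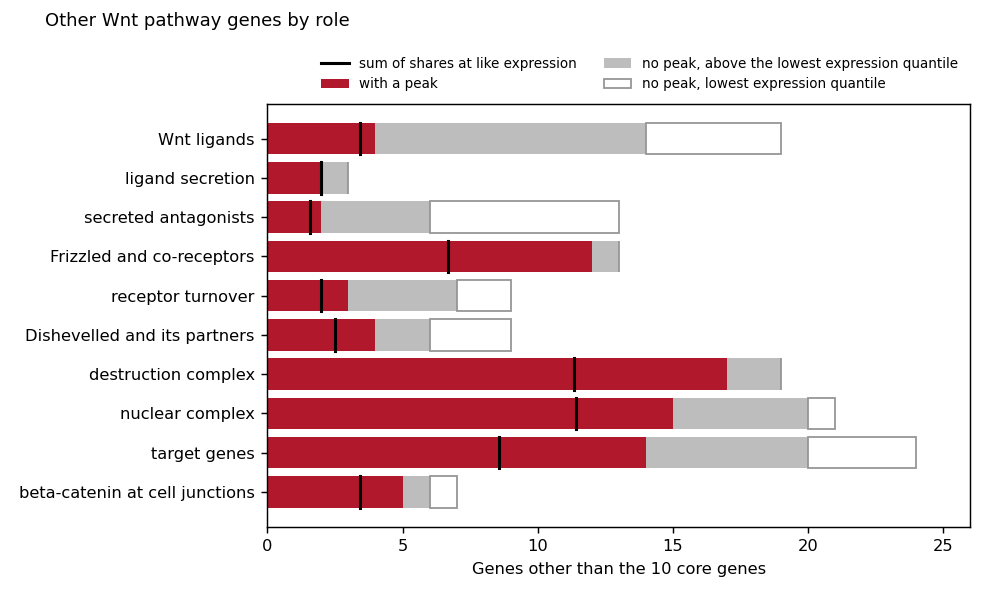
Numbers of genes (x axis) of 10 role lists of the Wnt pathway, without the 10 core genes, that had a peak (red), had none above the lowest expression quantile (grey) or had none at that quantile (white). Black marks give the sum of shares of like-expressed transcripts with a peak; receptors, with 12 of 13, lie furthest to the right of their mark in proportion, and 8 target genes also stand in other lists.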

How the data were processed

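The authors deposited 1 table for 4 m6A-IP and 3 input libraries. Per the labels' protocols, poly(A) RNA was fragmented to about 100 nt before precipitation. The sources used here do not give the aligner, the peak caller or the build. Per the file headers, the expression quantile is a fraction from 0 to 1, and the deposited peak score has no stated scale. No column belonged to 1 library, so depth per library is unknown, and weakly expressed genes may lack peaks for lack of reads.

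Segments are the authors', whose limits are not stated. The 7 core genes with peaks were matched to coding transcripts of GENCODE release 29 (GRCh38) by exon numbers, exon lengths and genomic span, allowing up to 300 nt at the 5' and 100 nt at the 3' end. AXIN1 had no peak in its last exon, so its span difference was placed at the 5' end. The closest match was used. Printed coordinates are GRCh38. Table lengths are reference lengths less these differences. Scripts ran in Python 3.11.15 with pandas 2.3.3 and were tested on simulated data.

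The core genes and lists were chosen with earlier results of these data known. Named genes are the 10 core genes and, of each role list, up to 3 others by score and 2 without a peak by expression. Motif windows, score limits, expression windows and stop codon windows were varied.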

Additional observations from a re-analysis of the deposited data

How the results depend on the processing

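Of the 10 core genes, 7 had a peak also when each transcript row was counted alone or when transcript start peaks were left out, but 4 did with a score at or above the median of all peaks (18.6% of all genes) and likewise 4 with a score of at least 3 (20.1% of all genes). The median share of like-expressed transcripts with a peak, 68.7% over the 10 genes, ran from 69.0% to 69.5% with windows of 0.02 or 0.10 or coding transcripts only. Stop codon peaks numbered 5 by the authors' segments, 5 within 200 nt in the reference, 4 within 100 nt and 6 within 400 nt. DRACH, which also allows T first, gave the same 93.8% within 50 nt, against 88.5% of windows. RRACH was found for 75.0% of peaks within 25 nt (55.9% of windows), for 100% within 100 nt (95.9% of windows) and for 56.3% within 10 nt, a window chosen after seeing the data. GGACT within 50 nt was found for 12.5%. Of the other pathway genes, 57.4% had a peak, 68.5% without those at the lowest quantile (41.5% of all such genes), and 42.6% with a score at or above the median (18.6% of all genes). No paired analysis was possible because the table analysed holds no value of a single library, and no library could be left out for the same reason.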

Other observations

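Beta-catenin also joins cadherins to the cytoskeleton, and 5 of 7 genes of that role had a peak, against 3.41 by adding up shares of like-expressed transcripts with a peak and 29.1% of all genes. The p120 catenin CTNND1 had 5 peaks with a top score of 4.31, vinculin (VCL) 3 with 4.14 and N-cadherin (CDH2) 1 with 3.94. The E-cadherin gene CDH1 stood at an expression quantile of 0.368 and CTNNA2, a neural alpha-catenin, at the lowest, and neither had a peak. N-cadherin stood at 0.784.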
